A study of Mus musculus with 79 samples.

Results

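The voltage-gated sodium channel subunit genes described here are Scn1a, Scn3a and Scn8a, which encode the pore-forming alpha subunits NaV1.1, NaV1.3 and NaV1.6, and Scn2b, Scn3b and Scn4b, which encode the auxiliary beta2, beta3 and beta4 subunits. They were chosen by name from the 38879 genes of a table of normalized counts, so 6 of 38879 genes are members. All 6 were found in it, and all 6 passed the filter on low values in every comparison. Their levels are described in 4 kinds of neuron of the mouse medial prefrontal cortex and in mice with and without chronic stress.

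A voltage-gated sodium channel has 1 large alpha subunit, which forms the pore and senses voltage, and smaller beta subunits, which sit in the membrane beside it, change its gating and bind other surface proteins. The channels gather at the axon initial segment and the nodes of the axon, where they start and carry the action potential. In the cortex NaV1.1 is known as the alpha subunit on which inhibitory interneurons, above all the parvalbumin cells, depend, NaV1.6 as that of the distal initial segment and the nodes, and NaV1.3 as a form most abundant around birth in rodents. The beta2 and beta4 subunits are tied to the alpha subunit by a disulfide bond, the beta3 subunit is not, and beta4 is known for promoting the resurgent current that helps some cells fire fast.

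The stressed mice were male C57Bl/6J animals that lived through 5 weeks of unpredictable chronic mild stress (UCMS) and were housed alone, and the controls were males of that strain kept with littermates, so stress and housing cannot be told apart. Each arm had 10 mice. From each mouse, 130 cells of each of 4 types were cut by laser from 12 µm sections after RNAscope staining: excitatory pyramidal neurons (PYR) and interneurons marked by parvalbumin (PV), by somatostatin (SST) or by the vasoactive peptide VIP. Every type and arm had 10 libraries, except for 9 libraries of UCMS PV neurons, which makes 79 libraries in all. The cells of a library came from 1 mouse.

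Libraries held 3642579 to 13529571 reads and 9033 to 20307 detected genes. The probed genes followed the labels. Pvalb had medians of 986 and 743 normalized counts in UCMS and control PV neurons, Sst of 12280 and 12730 in SST neurons, Vip of 4359 and 4796 in VIP neurons, and Slc17a7, the vesicular glutamate transporter of pyramidal cells, of 12930 and 14330 in PYR neurons. Slc17a7 was not at 0 in any interneuron library: its medians in UCMS and control mice were 2616 and 2746 in PV neurons, 3076 and 2991 in SST neurons and 4700 and 4622 in VIP neurons. The 3 markers common to inhibitory neurons, Gad1, Gad2 and Slc32a1, summed to medians of 241 and 429 in UCMS and control PYR libraries, against at least 5933 in each group of interneurons.

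The 6 genes lie on chromosomes 2, 9 and 15 (build GRCm38). Scn1a (chr2:66270778-66440840, minus strand) and Scn3a (chr2:65457118-65567627, minus strand) stand 703150 bases apart. Scn2b (chr9:45117782-45130070) and Scn4b (chr9:45138395-45154152) follow each other on the plus strand with 8324 bases between them, and Scn3b (chr9:40269217-40291618, plus strand) is on the same chromosome. Scn8a is at chr15:100869858-101045938 on the plus strand. Annotated models on the opposite strand overlap Scn1a, Scn3a, Scn2b and Scn3b, but they share 0 exon bases with these genes.

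The sequences just before the annotated starts of 4 genes are shown as a description, and their relation to the levels was not tested. They are the 250 bases upstream, from RefSeq on GRCm38.p6, read 5′ to 3′ on the gene's strand, with CG dinucleotides in capitals. RefSeq starts can lie inside the GENCODE gene bounds given above. Scn1a is at chr2:66440838-66441087 (minus strand), Scn8a at chr15:100870395-100870644 (plus strand, the first of the annotated starts), Scn2b at chr9:45117626-45117875 (plus strand) and Scn4b at chr9:45138374-45138623 (plus strand).
Scn1a: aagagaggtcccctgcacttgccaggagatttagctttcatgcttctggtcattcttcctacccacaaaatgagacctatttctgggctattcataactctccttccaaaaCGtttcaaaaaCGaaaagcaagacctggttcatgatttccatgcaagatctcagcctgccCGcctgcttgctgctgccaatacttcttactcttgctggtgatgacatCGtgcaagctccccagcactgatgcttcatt
Scn8a: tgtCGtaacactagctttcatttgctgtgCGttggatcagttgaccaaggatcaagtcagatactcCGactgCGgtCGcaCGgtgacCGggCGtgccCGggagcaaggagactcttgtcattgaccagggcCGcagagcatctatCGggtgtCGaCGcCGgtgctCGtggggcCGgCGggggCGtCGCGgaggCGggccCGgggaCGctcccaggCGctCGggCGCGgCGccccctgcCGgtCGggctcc
Scn2b: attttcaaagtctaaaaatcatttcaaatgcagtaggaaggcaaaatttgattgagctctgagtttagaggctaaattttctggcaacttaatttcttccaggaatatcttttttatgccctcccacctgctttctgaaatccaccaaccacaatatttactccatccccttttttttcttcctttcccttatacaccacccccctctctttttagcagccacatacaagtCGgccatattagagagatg
Scn4b: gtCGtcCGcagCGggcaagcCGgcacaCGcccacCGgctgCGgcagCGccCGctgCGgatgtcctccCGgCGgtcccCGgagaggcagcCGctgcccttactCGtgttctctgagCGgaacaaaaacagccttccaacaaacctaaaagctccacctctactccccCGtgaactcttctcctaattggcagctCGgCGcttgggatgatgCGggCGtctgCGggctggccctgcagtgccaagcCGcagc
The windows of Scn8a and Scn4b hold 30 and 23 CG dinucleotides and are 68.0% and 66.0% G or C. At a further annotated start of Scn8a (chr15:100936021-100936270), not shown, the window holds 9 and is 53.2% G or C. The windows of Scn1a and Scn2b hold 4 and 1, at 46.8% and 38.4% G or C, against medians of 6 CG dinucleotides and 52.4% G or C over all 32851 promoter windows of that length. Scn3a and Scn3b are not shown. The neighbours Scn2b and Scn4b are thus far apart in base composition. On either strand, GGGCGG, the core of the GC box, is in none of the 4 windows and in 32.7% of all promoters, and TATAAA is in none of the 4 and in 12.4% of all. CANNTG, the E-box, occurs 1 time for Scn1a, 2 times each for Scn8a and Scn2b, and not for Scn4b, and is in 66.2% of all promoters. The first 2 motifs being absent, no motif overlaps another in these windows. A match is a string of letters, not a bound site.

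Between neuron types, several of these genes differed severalfold. The types were compared in pairs within each arm, with the mouse as a block, by limma on log2(normalized count + 4), and a gene was called at a Benjamini-Hochberg adjusted p under 0.05 over all genes tested. PV against PYR neurons called all 6 members in UCMS mice (4 higher in PV, 2 lower), where 11.3% of all genes were called, and 3 members in control mice (2 higher, 1 lower), where 8.32% were. PV against VIP neurons called all 6 members in both arms, 4 higher and 2 lower in PV, against 11% of all genes in UCMS mice and 6.83% in control mice. PV against SST neurons called 5 members in UCMS mice (3 higher, 2 lower; 5.24% of all genes) and 4 in control mice (3 higher, 1 lower; 3.68% of all genes). SST against PYR neurons called 2 members in each arm, 1 higher and 1 lower, with 6.26% of all genes called in UCMS mice and 4.53% in control mice. VIP against PYR neurons likewise called 2 in each arm, 1 higher and 1 lower, with 5.32% and 4.12% of all genes called in UCMS and control mice. SST against VIP neurons called 1 member, higher in SST, in UCMS mice, where 4.39% of all genes were called, and 2, both higher in SST, in control mice, where 2.93% were. The arms are different mice: of the 36 gene and contrast pairs, 35 had the same sign in both arms and 18 were called in both, 6 of them for Scn1a and 5 for Scn8a.

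**Figure D1:**
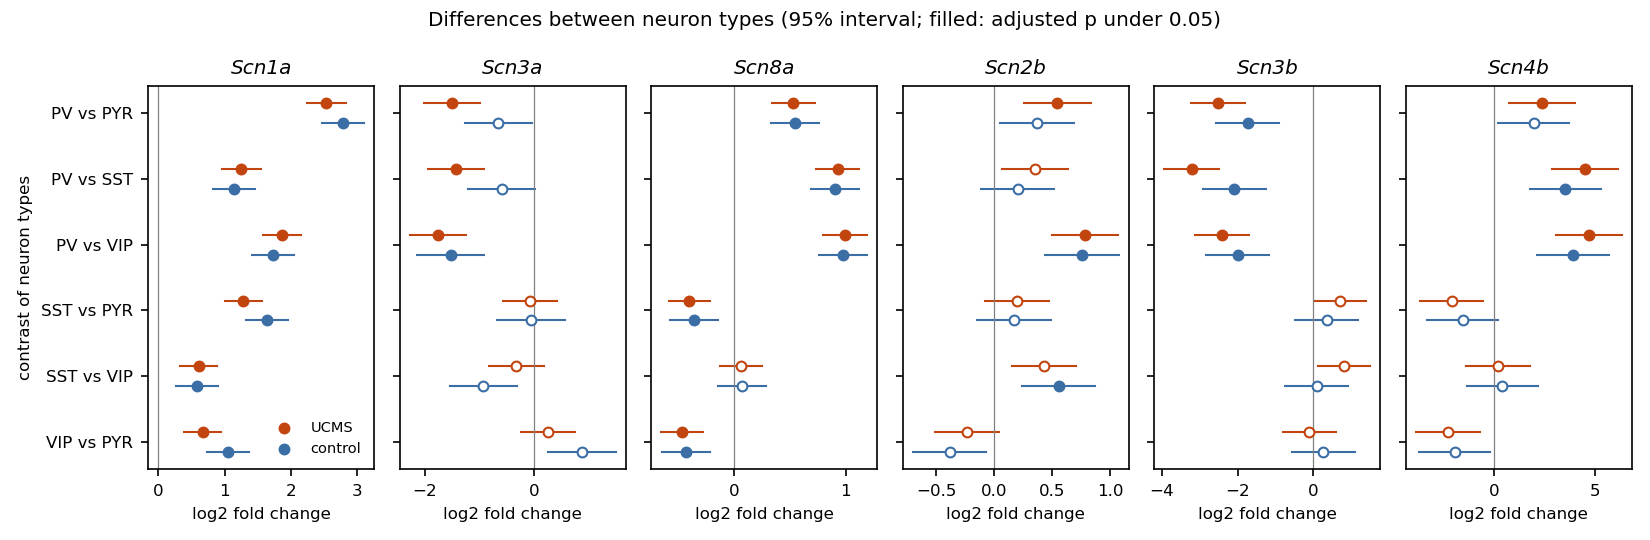
Log2 fold change of each gene between pairs of neuron types, first-named over second, with the 95% interval of the difference, in UCMS mice (upper mark of each pair) and control mice (lower mark); filled marks have an adjusted p under 0.05. Scn1a is to the right of 0 in all 6 pairs, Scn8a in the pairs of PV neurons, and Scn3a and Scn3b are to the left of 0 in the pairs of PV neurons.

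Among the alpha subunits, Scn1a separated the types most. In PV neurons its normalized counts ran from a lowest of 5080 through a median of 5703 to a highest of 7397 in UCMS mice, and 4781, 7032 and 7834 in control mice. In SST neurons the lowest, median and highest were 1618, 2598 and 3522 in UCMS mice and 2247, 2982 and 4963 in control mice. Every PV library was above every VIP and PYR library in both arms, and PV libraries were above all SST libraries in UCMS mice but not in control mice, where SST library U6 reached 4963. In VIP neurons the values were 1247, 1625 and 2858 in UCMS mice and 1308, 1950 and 3453 in control mice. In PYR neurons they were 553, 1242 and 1671 in UCMS mice and 577, 952 and 1618 in control mice. The order was therefore PV, SST, VIP, PYR in both arms, and each step of it was called in both arms.

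The step from SST down to VIP was the smallest in Scn1a's order. SST over VIP was 0.61 ± 0.142 on the log2 scale (SE; adjusted p = 0.00147, limma) in UCMS mice and 0.58 ± 0.162 (adjusted p = 0.0181) in control mice, higher in 10 of 10 and 9 of 10 mice. In control mice this call was lost without SST library U1 or U6 or VIP library U1 or U2, with adjusted p up to 0.0920 and a log2 difference of at least 0.49, and with no filter on low genes (adjusted p = 0.151). PV over SST was 1.25 ± 0.147 (adjusted p = 1.77e-12) in UCMS mice and 1.15 ± 0.162 (adjusted p = 5.26e-09) in control mice, and PV was the higher in every mouse with both libraries, 9 of 9 and 10 of 10. VIP over PYR was 0.67 ± 0.142 (adjusted p = 2.79e-04) in UCMS mice and 1.05 ± 0.162 (adjusted p = 1.05e-07) in control mice. The widest contrast, PV over PYR, had a ratio of means of 5.31 in UCMS mice and 6.59 in control mice.

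**Figure D2:**
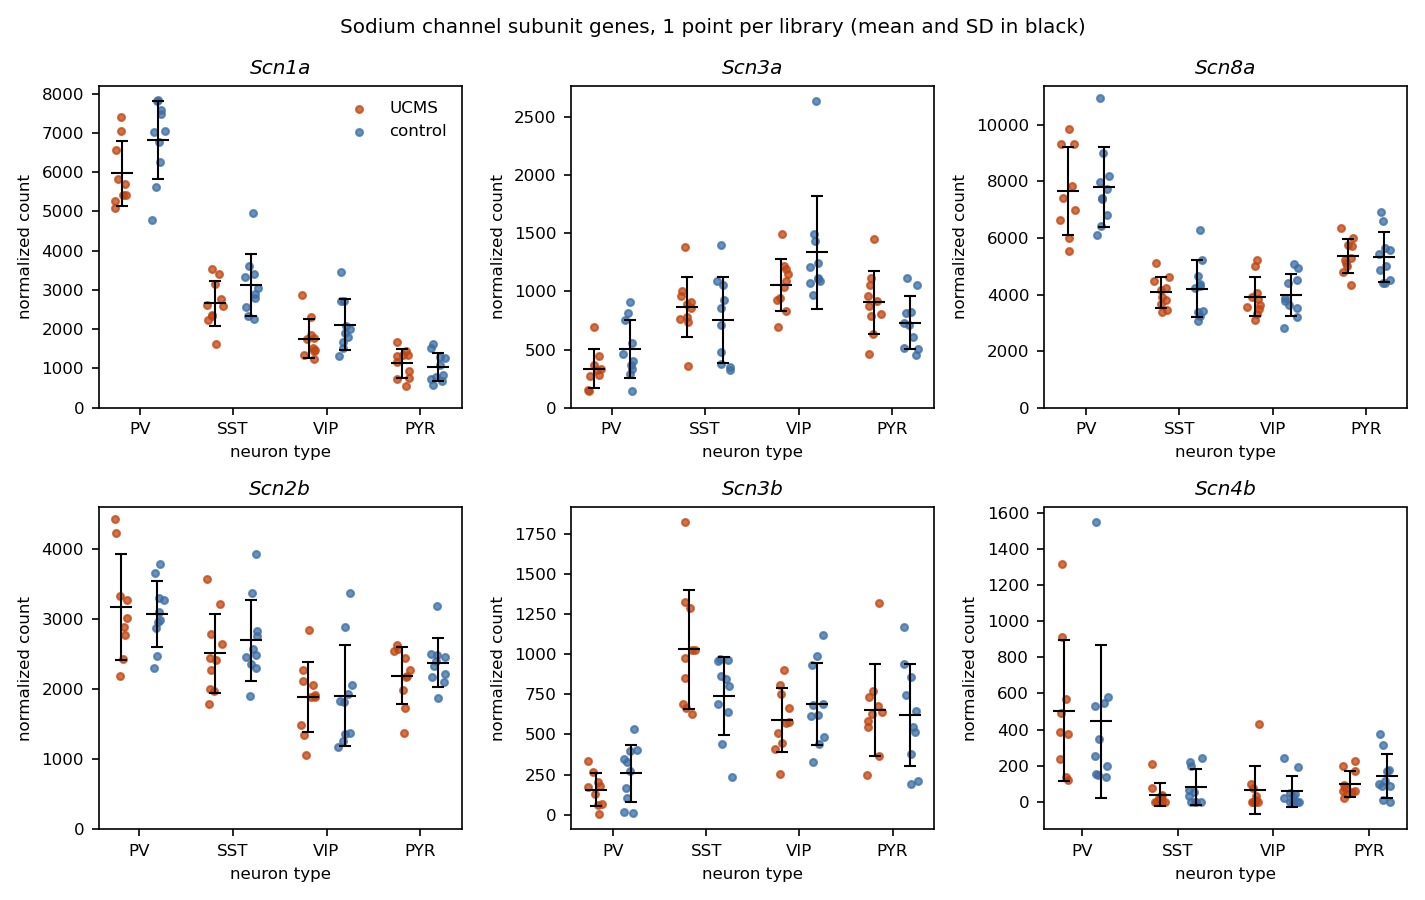
Normalized count of each gene (vertical axis, linear) in the 79 libraries, by neuron type, with UCMS left of control in each type; points are libraries and black marks the mean and SD. Scn1a, Scn8a and Scn4b are highest in PV neurons, Scn3a and Scn3b lowest there, and the 2 arms of each type overlap in all 6 genes.

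Scn8a was high in every type and varied within a narrower range. Its lowest, median and highest counts in PV neurons were 5550, 7408 and 9853 in UCMS mice and 6116, 7575 and 10972 in control mice, above all VIP libraries in both arms and above all SST libraries in UCMS mice. In SST neurons they were 3395, 4030 and 5118 in UCMS mice and 3051, 4267 and 6266 in control mice, and in VIP neurons 3109, 3740 and 5224 in UCMS mice and 2830, 3818 and 5070 in control mice. In PYR neurons they were 4326, 5257 and 6367 in UCMS mice and 4393, 5218 and 6926 in control mice. Unlike Scn1a, Scn8a was thus second highest in the excitatory cells.

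PV exceeded PYR neurons in Scn8a by 0.53 ± 0.0983 (SE; adjusted p = 7.20e-06, limma) in UCMS mice and 0.54 ± 0.109 (adjusted p = 5.27e-05) in control mice. VIP neurons were below PYR neurons by -0.46 ± 0.0948 (adjusted p = 1.55e-04) in UCMS mice, lower in 10 of 10, and by -0.43 ± 0.109 (adjusted p = 0.00534) in control mice, lower in 9 of 10. In control mice that call was lost without VIP library U3 (adjusted p = 0.0521) and with no filter on low genes (adjusted p = 0.0508). SST neurons were below PYR neurons by -0.40 ± 0.0948 (adjusted p = 0.00143) in UCMS mice and by -0.36 ± 0.109 (adjusted p = 0.0288) in control mice. The control value was not called in 8 of 40 fits that left out 1 library (PYR U3, U7, U8 or U10, or SST U5, U7, U8 or U9; adjusted p up to 0.0909), nor with quantile normalization (adjusted p = 0.142) or no filter (0.150). SST and VIP neurons were not called apart: SST minus VIP was 0.06 on the log2 scale (95% interval -0.12 to 0.25) in UCMS mice and 0.07 (-0.15 to 0.28) in control mice.

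Scn3a ran against both. Its lowest, median and highest counts in PV neurons were 143, 321 and 695 in UCMS mice and 140, 431 and 907 in control mice, and in VIP neurons 695, 1062 and 1496 in UCMS mice and 972, 1164 and 2644 in control mice. In control mice every PV library was below every VIP library, and in UCMS mice the 2 ranges met at their ends. Means were 865 ± 257 and 757 ± 370 in UCMS and control SST neurons, and 907 ± 271 and 731 ± 226 in PYR neurons (SD, n = 10 each). PV was below VIP neurons by -1.76 ± 0.261 (SE; adjusted p = 1.61e-08, limma) in UCMS mice and -1.53 ± 0.312 (adjusted p = 1.10e-04) in control mice. Below PYR and SST neurons, PV was called in UCMS mice (-1.51 ± 0.261 and -1.43 ± 0.261) and not in control mice (-0.66 ± 0.312, adjusted p = 0.226, and -0.60 ± 0.312, adjusted p = 0.396). The stress effect on Scn3a in PV neurons minus that in PYR neurons was -0.85 (95% interval -1.67 to -0.04; unadjusted p = 0.0408, adjusted p = 1.000, limma). Minus that in SST neurons it was -0.83 (-1.65 to -0.02; unadjusted p = 0.0447, adjusted p = 0.970, limma). Neither passed the adjustment, nor did the test over all 4 types (unadjusted p = 0.0914, adjusted p = 0.9997, limma), so the PV differences are not shown to differ between the arms. SST, VIP and PYR neurons were not called apart in Scn3a in either arm by limma. In control mice VIP minus PYR was 0.87 ± 0.312 and SST minus VIP -0.93 ± 0.312; DESeq2 called both (adjusted p = 0.0319 and 0.0354), and limma called SST against VIP without SST library U4 (adjusted p = 0.0480).

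Levels of different genes can be compared only per length. Per kilobase of annotated exon, Scn2b had the highest mean in all 4 types, and the order of Scn1a and Scn8a below it differed between types. In PV neurons Scn2b had 682 ± 161 and 660 ± 101 normalized counts per kb in UCMS and control mice, Scn1a 535 ± 74.5 and 612 ± 90.1, and Scn8a 486 ± 98.4 and 495 ± 89.1 (SD, n = 9 and 10). In PYR neurons Scn2b had 471 ± 87.1 and 510 ± 74.9, Scn8a 340 ± 38.2 and 339 ± 56.1, and Scn1a 101 ± 32.5 and 92.8 ± 33.1 (SD, n = 10 each). In SST neurons Scn1a had 239 ± 51.9 and 280 ± 71.1 and Scn8a 259 ± 34.7 and 267 ± 63.9, and in VIP neurons Scn1a had 157 ± 44.6 and 190 ± 59.0 and Scn8a 249 ± 44.1 and 252 ± 46.9, in UCMS and control mice. Scn1a was above Scn8a per kb in 6 of 9 PV libraries of UCMS mice and 9 of 10 of control mice. The count was 4 and 6 of 10 SST libraries, 0 and 1 of 10 VIP libraries, and 0 and 0 of 10 PYR libraries of UCMS and control mice. Scn3a stayed between 26.8 (UCMS PV) and 107 (control VIP) counts per kb. Reads from introns and uneven coverage were not separated, so these per-kb levels are relative to annotated exon length and no more.

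**Figure D3:**
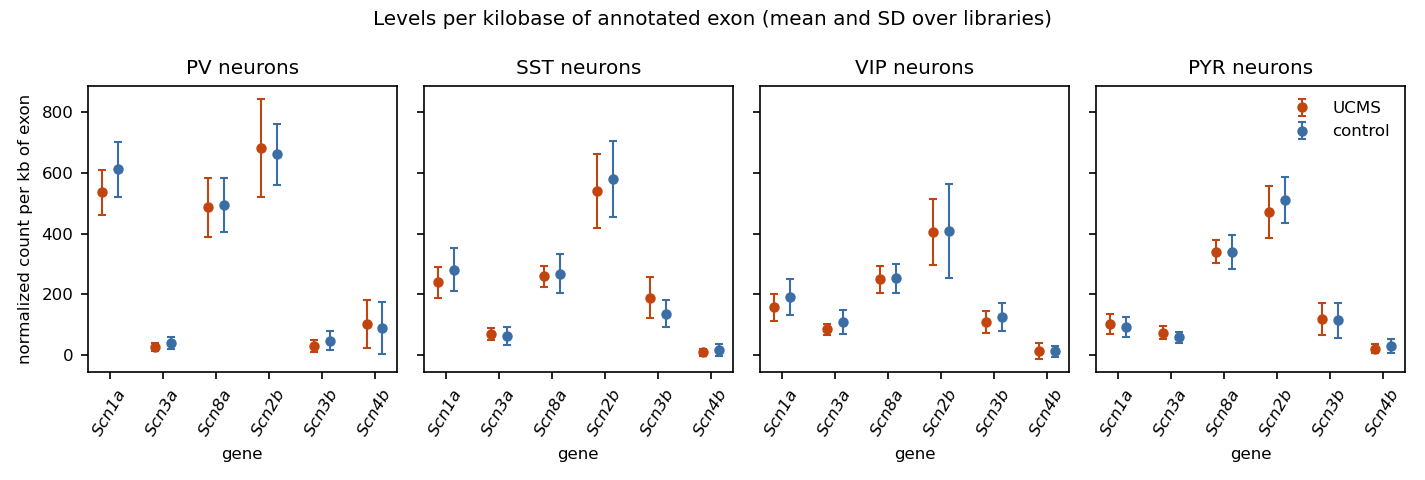
Mean normalized count per kilobase of annotated exon for the 6 genes in each neuron type, with the SD over libraries, UCMS left of control. Scn2b is highest in all 4 types; the mean of Scn1a is above that of Scn8a in PV neurons and far below it in PYR neurons.

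Of the beta subunits, Scn2b varied least between types. Its means in UCMS and control mice were 3175 ± 751 and 3075 ± 468 in PV neurons, 2515 ± 565 and 2699 ± 579 in SST neurons, 1888 ± 503 and 1907 ± 720 in VIP neurons, and 2193 ± 405 and 2376 ± 349 in PYR neurons (SD, n = 10 each, 9 in UCMS PV). PV over VIP was 0.78 ± 0.146 (SE; adjusted p = 1.03e-05, limma) in UCMS mice and 0.76 ± 0.161 (adjusted p = 2.31e-04) in control mice, higher in 9 of 9 and 9 of 10 mice. PV over PYR was called in UCMS mice (0.54 ± 0.146, adjusted p = 0.00385) and not in control mice (0.37 ± 0.161, adjusted p = 0.168). SST over VIP was called in control mice (0.56 ± 0.161, adjusted p = 0.0277) and not in UCMS mice (0.43 ± 0.140, adjusted p = 0.0551).

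Those SST and VIP values of Scn2b sat near the threshold. The control call was lost in 10 of 40 fits that left out 1 library (SST U2, U4, U6, U8 or U9, or VIP U2, U6, U8, U9 or U10), without the libraries under 6000000 reads (adjusted p = 0.144), with edgeR (0.0580) and with no filter (0.117). In UCMS mice it was gained in 7 of 39 such fits (without PV U605, SST U602, U608 or U609, or VIP U602, U608 or U610) and with DESeq2 (adjusted p = 0.0402).

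Scn3b was the beta subunit gene with lower levels in PV neurons than in each other type. Its lowest, median and highest counts in PV neurons were 1.16, 173 and 333 in UCMS mice and 7.89, 299 and 532 in control mice, and in SST neurons 628, 999 and 1822 in UCMS mice and 235, 822 and 968 in control mice. In UCMS mice all PV libraries were below all SST libraries. Means in UCMS and control mice were 589 ± 197 and 689 ± 253 in VIP neurons and 651 ± 285 and 620 ± 317 in PYR neurons (SD, n = 10 each). PV was below SST neurons by -3.22 ± 0.363 (SE; adjusted p = 8.40e-12, limma) in UCMS mice and -2.09 ± 0.423 (adjusted p = 1.73e-04) in control mice. PV was also called below VIP and PYR neurons in both arms, with log2 differences between -2.51 and -1.73. The other types were not called apart.

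Scn4b showed the reverse pattern, highest in PV neurons and with libraries at 0 in the other types. In PV neurons its lowest, median and highest counts were 120, 389 and 1315 in UCMS mice and 137, 300 and 1547 in control mice, where library U2 alone exceeded 581. In SST neurons the median was 24.4 in UCMS mice, with 3 of 10 libraries at 0, and 44.4 in control mice, with 4 of 10 at 0. In VIP neurons it was 5.11 and 27.7 in UCMS and control mice, with 4 of 10 libraries at 0 in each, and in PYR neurons 69.2 and 107, with 0 and 1 of 10 at 0. A library with 0 reads allows up to 3 reads, which is 1.87 to 7.18 normalized counts over the libraries and covers counting error only.

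PV over VIP neurons was called for Scn4b in UCMS mice (4.67 ± 0.828, SE, adjusted p = 3.22e-06, limma) and control mice (3.90 ± 0.897, adjusted p = 8.72e-04), higher in 8 of 9 and 10 of 10 mice. PV over SST was 4.48 ± 0.828 (adjusted p = 1.51e-05) and 3.51 ± 0.897 (adjusted p = 0.00628) in UCMS and control mice. The control value was not called by edgeR (adjusted p = 0.288) or DESeq2 (0.0837), and the control PV over VIP value was not called by edgeR (0.0578). PV over PYR was called in UCMS mice (2.37 ± 0.828, adjusted p = 0.0428) and not in control mice (1.94 ± 0.897, adjusted p = 0.207), higher in 9 of 9 and 9 of 10. That UCMS call was lost with a pseudocount of 1 (adjusted p = 0.144), with no filter (0.0816), without the mouse block (0.0655), with edgeR (0.0732) and in 14 of 39 fits that left out 1 library (PV U602, U603 or U605 to U608, PYR U601, U603, U604, U606 or U608 to U610, or SST U609). For a gene with libraries at 0, these fitted differences depend on the added 4 and are neither fold changes of the mean nor bounds.

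Some marker genes of other cells also differed between neuron types. Slc17a7 was called lower in all 3 interneuron types than in PYR neurons and was higher in VIP than in PV or SST neurons. The summed level of 6 astrocyte markers ran from 3534 to 7528 in UCMS and 4373 to 8673 in control PV libraries, 4682 to 8953 and 5185 to 8511 in SST libraries, 7498 to 13652 and 6123 to 15550 in VIP libraries, and 6463 to 9531 and 4877 to 10798 in PYR libraries. Slc1a2, a glutamate transporter, made up most of that sum (means of 7360 and 7558 in UCMS and control PYR neurons). It was the 1 of 6 called in PV against PYR and in SST against PYR neurons, lower in the interneurons in both arms. Slc1a2 was also called lower in PV and in SST than in VIP neurons in both arms. Not called between PV and PYR neurons, Gja1 and Aqp4 had higher means in PV in both arms, and Slc1a3 lower ones. Gfap and Aldh1l1 changed direction between the arms. In UCMS mice Slc1a2, Slc1a3 and Gja1 were called higher in VIP than in PYR neurons, Slc1a3 and the precursor marker Pdgfra were called lower in PV than in VIP neurons, and in control mice the microglial marker P2ry12 was lower in PV than in VIP neurons. Of 6 oligodendrocyte markers 0 were called between types in control mice, and in UCMS mice Cnp and Mbp were called higher in SST than in VIP neurons. Pvalb was at 0 in 9 of 10 UCMS and 6 of 10 control PYR libraries, while Sst was at 0 in none of them. The 3 oligodendrocyte precursor markers summed to 8 to 1348, the 6 microglial markers to 0 to 1400 and the 3 endothelial ones to 0 to 699 over all libraries. The part of these cells in the levels above was not tested. In such bulk samples, fewer cells of a type in a library and less RNA per cell cannot be told apart.

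Stress moved none of the 6 genes past the threshold. By limma, 0 of 6 were called between UCMS and control in PV, SST or VIP neurons, where 0% of all genes were called, and 0 of 6 in PYR neurons, where 0.0808% of all genes were called. At an unadjusted p under 0.05 (limma) there were 0 of 6 members in PV, VIP and PYR neurons and 1 of 6 in SST neurons. Of all genes tested, 630 of 16847 were under it in PV, 1001 of 19451 in VIP, 1023 of 16092 in PYR and 979 of 17108 in SST neurons. Over the 4 types together, with 1 mean per mouse, 0 of 6 members and 0% of all genes were called. There 1187 of 17427 genes had an unadjusted p under 0.05 (limma). The test of whether the stress effect differed between types also called 0 of 6 and 0%, with 816 of 17427 genes under that p. The adjusted p of each member in that last test was 0.9997. edgeR and DESeq2 called 0 of 6 members within every type and in the average. Of the 16847, 17108, 19451 and 16092 genes in PV, SST, VIP and PYR neurons, edgeR called 0, 1, 885 and 27 and DESeq2 46, 30, 83 and 32.

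Scn3b in SST neurons was the member with an unadjusted p under 0.05. Its mean was 1029 ± 369 in UCMS mice and 740 ± 244 in control mice (SD, n = 10 each), a log2 difference of 0.50 ± 0.253 (SE; unadjusted p = 0.0481, adjusted p = 0.859, limma). In 7 of 10 UCMS mice it was above the control median, and the ranges overlapped. The 95% interval was 0.0042 to 1.00 on the log2 scale. In PV neurons Scn3b had the largest difference of the 24 in size and the opposite sign, -0.60 (-2.03 to 0.83; adjusted p = 0.982, limma). There 8 of 9 UCMS libraries were below the control median, and leaving out 1 library moved the difference between -1.02 and -0.05. In VIP neurons it was -0.22 (-0.89 to 0.46) and in PYR neurons 0.15 (-0.33 to 0.64).

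Scn1a averaged 5968 ± 830 in UCMS and 6820 ± 1004 in control PV neurons (SD, n = 9 and 10), a log2 difference of -0.19 (95% interval -0.39 to 0.01; adjusted p = 0.982, limma). In SST neurons the difference was -0.23 (-0.50 to 0.04), in VIP neurons -0.26 (-0.63 to 0.12) and in PYR neurons 0.13 (-0.24 to 0.50). In PV, SST and VIP neurons 2 of 9, 3 of 10 and 2 of 10 UCMS libraries were above the control median, and in PYR neurons 6 of 10. None of these differences passed the test, and without the libraries under 6000000 reads the VIP value turned to 0.07. VIP control libraries had a median of 7767370 reads, against 9421670 in VIP UCMS libraries.

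For Scn8a the log2 differences between UCMS and control were within 0.04 of 0 in all 4 types. The intervals were -0.22 to 0.15 in PV neurons, -0.25 to 0.20 in SST neurons, -0.27 to 0.24 in VIP neurons and -0.16 to 0.19 in PYR neurons. Scn2b had differences of 0.03, -0.11, 0.02 and -0.13 in PV, SST, VIP and PYR neurons, with intervals that all included 0. Scn3a had -0.55, 0.30, -0.31 and 0.31 in the same order of types, and Scn4b 0.23, -0.58, -0.38 and -0.04. Scn4b's 95% intervals were -0.62 to 1.07, -2.46 to 1.29, -2.36 to 1.60 and -1.31 to 1.24, and leaving out 1 library moved its differences between 0.0079 and 0.47, -0.96 and -0.24, -0.90 and 0.0068, and -0.53 and 0.20. For Scn4b in VIP neurons the ratio of means was 1.11, the other way from the log2 difference, and its SE of 1.01 was the largest of the 24.

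**Figure D4:**
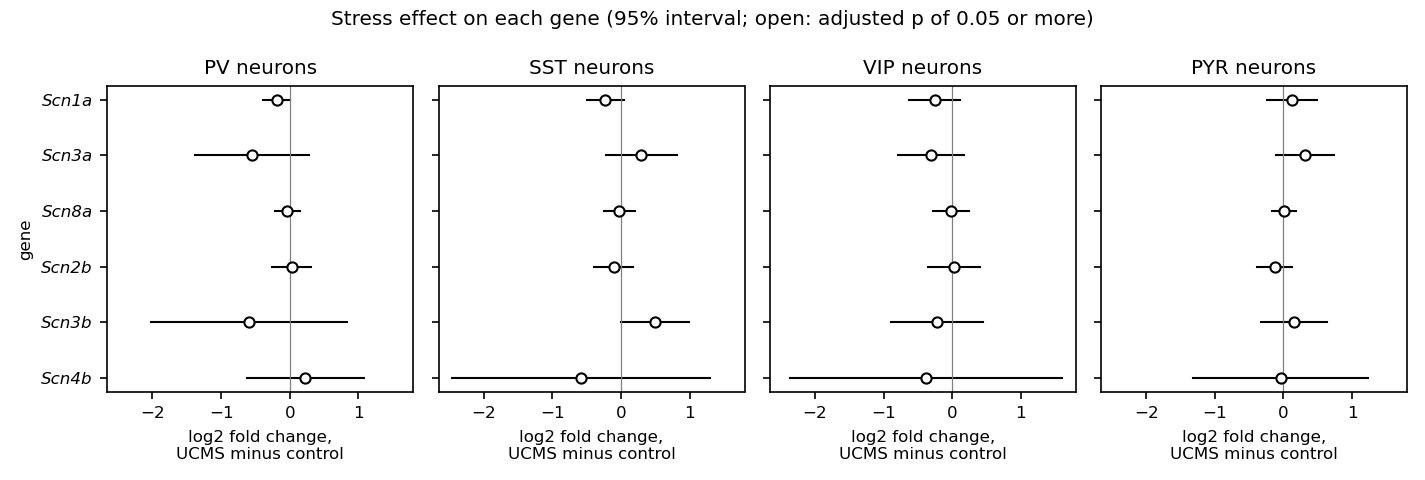
Log2 fold change of UCMS over control for each gene in PV, SST, VIP and PYR neurons, with its 95% interval; open marks have an adjusted p of 0.05 or more. All 24 marks are open; the intervals of Scn8a are the narrowest in each type, and those of Scn4b the widest in SST, VIP and PYR neurons.

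The balance of Scn1a and Scn8a within a library does not depend on its size factor, apart from the added 4. The log2 ratio of Scn1a to Scn8a, in counts not divided by length, was -0.35 ± 0.384 in UCMS and -0.19 ± 0.243 in control PV neurons (SD, n = 9 and 10; exact permutation test, adjusted p = 0.396). It was -0.64 ± 0.371 and -0.43 ± 0.260 in UCMS and control SST neurons (permutation test, adjusted p = 0.387), -1.19 ± 0.347 and -0.95 ± 0.441 in VIP neurons (permutation test, adjusted p = 0.387) and -2.32 ± 0.535 and -2.43 ± 0.647 in PYR neurons (permutation test, adjusted p = 0.665; n = 10 each). The tests were two-sided and adjusted over the 4 types. None was called, and the ranges of the arms overlapped in every type.

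Genes that act on these channels were read from fixed lists. Of 4 FGF homologous factors, which bind the tail of the alpha subunit, 2 were higher in PV than in PYR neurons in both arms. Of all genes, 11.3% and 8.32% were called in that contrast in UCMS and control mice. The median log2 difference over the 4 was 0.81 and 0.79 in UCMS and control mice, against -0.15 and -0.07 over all genes tested. The 2 higher factors were Fgf12 and Fgf11. Fgf12 had 1659 ± 472 and 1337 ± 283 counts in UCMS and control PV neurons, against 685 ± 359 and 502 ± 292 in PYR neurons. Fgf11 had 389 ± 107 and 378 ± 198, against 69.3 ± 80.8 and 51.9 ± 45.0 (SD). Fgf13 and Fgf14 were not called in that contrast in control mice. PV neurons were not alone in this. In control mice 2 of the 4 were also higher in SST and in VIP than in PYR neurons (median log2 differences 1.05 and 1.10, with 4.53% and 4.12% of all genes called). Against PYR neurons in UCMS mice, 1 was higher in SST and 2 in VIP neurons (6.26% and 5.32% of all genes called). PV against SST and PV against VIP called 0 of the 4 in control mice (3.68% and 6.83% of all genes called). In UCMS mice they called 1 each, higher in PV (5.24% and 11% of all genes). Of 9 genes of the initial segment and node scaffold, Nrcam, a cell adhesion protein of nodes, was the 1 called in PV against PYR neurons in control mice, lower in PV (log2 difference -0.72; 8.32% of all genes called). In UCMS mice 6 of the 9 were called in that contrast, 3 higher and 3 lower in PV (11.3% of all genes), among them Nrcam (-0.83), the spectrin gene Sptan1 (-0.19) and Nfasc, another adhesion protein of nodes (0.47). The list's median log2 difference was -0.19 in UCMS mice and -0.11 in control mice, against -0.15 and -0.07 over all genes tested. Cntn2, an adhesion protein of the region beside the node, was higher in PV and in SST than in VIP neurons in control mice, by 1.15 and 1.38.

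Of 8 genes for calmodulin, casein kinase 2 and the NEDD4 ubiquitin ligases, 3 were lower in PV than in PYR neurons and 0 higher in each arm (11.3% and 8.32% of all genes called in UCMS and control mice). The list's median log2 difference was -0.27 in UCMS mice and -0.51 in control mice, against -0.15 and -0.07 over all genes tested. Among those lower in both arms was Nedd4l, whose ligase marks sodium channels for removal from the membrane. Nedd4l had 736 ± 193 and 707 ± 246 counts in UCMS and control PV neurons, against 1388 ± 252 and 1688 ± 373 in PYR neurons. Of 7 proteases known to cut beta subunits, 0 were called in PV against PYR neurons, Bace1 among them (929 ± 256 and 956 ± 271 in UCMS and control PV neurons, against 779 ± 164 and 908 ± 206 in PYR neurons). Of 7 other sodium channel genes, 5 could be tested in control mice. Scn9a, the NaV1.7 gene, was the 1 called in PV against PYR neurons there (higher, log2 difference 2.90), with 526 ± 522 counts in control PV neurons and 80.9 ± 64.7 in control PYR neurons. In UCMS mice Scn9a was not called in that contrast (1.65, adjusted p = 0.0657, limma). Scn7a, an atypical member of the family, was the 1 called of 6 tested, lower in PV neurons (-3.60, adjusted p = 6.06e-04, limma). Its means in UCMS mice were 59.2 ± 138 in PV and 152 ± 76.9 in PYR neurons (SD). The fitted difference depends on the added 4 and is not a fold change of these means. In UCMS SST neurons the Scn7a mean was 21.7 ± 35.3, and SST against PYR neurons also called 1 of the 6, lower in SST. Between UCMS and control, limma called 0 genes of these lists in any type (10 of 132 gene and type pairs had an unadjusted p under 0.05), and edgeR and DESeq2 also 0 (2 and 3 of 132 at an unadjusted p under 0.05).

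Of 7 potassium channel genes of fast-spiking cells, which repolarize the membrane between spikes, most were higher in PV than in PYR neurons. In UCMS mice 5 were called higher (11.3% of all genes called), and in control mice 6 (8.32%). The list's median log2 difference was 1.75 in UCMS mice and 2.03 in control mice, against -0.15 and -0.07 over all genes tested. SST against PYR neurons called 3 of the 7 higher in each arm (6.26% and 4.53% of all genes in UCMS and control mice). VIP against PYR neurons called 3 and 2 higher (5.32% and 4.12%). PV against SST neurons called 6 and 5 higher in PV (5.24% and 3.68%), and PV against VIP neurons 7 in each arm (11% and 6.83%). Kcnc1, the Kv3.1 gene, had 7282 ± 1440 and 7734 ± 1520 counts in UCMS and control PV neurons, against 963 ± 287 and 896 ± 333 in PYR neurons. Kcnc2, the Kv3.2 gene, had 5854 ± 1220 and 5643 ± 1080, against 286 ± 178 and 219 ± 138. Kcna2, a Kv1 channel of the axon, was called higher in PV than in each other type in control mice. Between UCMS and control, limma, edgeR and DESeq2 called 0 of 7 in any type, and 1, 0 and 3 of 28 gene and type pairs had an unadjusted p under 0.05 by limma, edgeR and DESeq2.

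As a description over the 79 libraries, which share mice, types and depth, the genes most like each member among 8120 genes with a mean of at least 100 counts were found by Pearson's r of log2(normalized count + 4). For Scn1a they were Ank1 (0.872), Atp1b1 (0.870) and Kcnc1 (0.851). For Scn8a they were Atp2a2 (0.750), Dock4 (0.738) and Atrnl1 (0.705), and for Scn3a Cpne7 (0.642), Camk2n1 (0.640) and Fxyd6 (0.636). For Scn2b they were Got1 (0.694), Kcna2 (0.682) and Iqsec1 (0.657), for Scn3b Eef1a1 (0.678), Cacna2d3 (0.673) and Fxyd6 (0.668), and for Scn4b Syt2 (0.674), Ndrg4 (0.636) and Ogdh (0.605). No other member was among the 3 nearest of any member. Fxyd6 was near both Scn3a and Scn3b, the pair with low values in PV neurons.

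Between members, r over all libraries was highest for Scn8a with Scn4b (0.538) and lowest for Scn8a with Scn3b (-0.608). Once each group's mean was taken out, all 15 pairs lay between -0.175 and 0.252. Correlations between members, positive for some pairs and negative for others over all libraries, were thus weak within a group of libraries. Scn1a with Scn8a, 0.457 over all libraries, was 0.161 within groups.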

How the data were processed

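The data are RNA-seq libraries of laser-captured neurons. The authors deposited a signal they call normalized counts, in which reads per gene are scaled by 1 factor per library. The submitters' processing notes list HISAT2, SAMtools 1.3, DESeq2 and the build GRCm38 (mm10). How reads were assigned to genes, with which annotation and strand setting, is not given in the sources at hand. Without a stated strand setting, reads of overlapping antisense models cannot be told apart. Per the labels' protocols, a strand-keeping total-RNA kit for very small inputs was used.

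Every value was a whole number of reads (within 0.001) in all libraries, and recovered reads gave depth and the count tests. The GENCODE M21 annotation matched 38566 identifiers and not 313. Tests used limma 3.58.1 (trend, robust) in R 4.3.3 on log2(normalized count + 4) for genes with a mean of at least 10. The added 4 understates changes of low genes. Adjusted p-values are Benjamini-Hochberg over all genes tested, with a threshold of 0.05. Stress was compared between mice; type contrasts and the type by stress interaction kept the mouse as a fixed block. Permutation tests used 100000 resamples, or all of them for PV. The scripts were tested on simulated data with known changes.

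Libraries with the same number in their titles were taken to come from 1 mouse, and the pairing rests on those titles. The values themselves do not show it. After group means were removed, the median correlation was 0.00773 between 2 libraries of a mouse and -0.000989 between mice, with 0 of 117 pairs over 0.1.

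Alternatives were pseudocounts of 1 and 16, no filter, a mean of at least 50, quantile normalization, scaling to protein-coding reads, a protein-coding share covariate, no or a random mouse block, edgeR 4.0.16, DESeq2 1.42.0, and each library left out. Leaving out the 7 libraries under 6000000 reads was added after seeing the data.

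Members, lists and tests were chosen with earlier results of these data known. All members were named, with up to 4 genes of each of 6 lists by smallest adjusted p and the 3 genes most like each member. Some further genes are not reported here.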

Additional observations from a re-analysis of the deposited data

Results flagged for a closer look

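Within groups of 9 or 10 libraries, Dixon's 95% limit on untransformed counts marked 7 of 48 groups (6 genes in 8 groups). Its chance rate of about 1 in 20 holds for normally distributed values, and these counts were not tested for that. Each marked value was the highest of its group, and no excess over chance can be read from the number marked. Scn1a was 4963 normalized counts in control SST library U6, next to 3619 in the nearest library and a group median of 2982. Scn3a was 2644 in control VIP library U6, with 1492 nearest and a median of 1164. Scn2b was 3194 in control PYR library U3, with 2496 nearest. Scn3b was 1321 in UCMS PYR library U605, with 768 nearest.

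Scn4b was marked in 3 groups. It was 1547 in control PV library U2, with 581 nearest and a median of 300. It was 208.1 in UCMS SST library U610, with 75.6 nearest, and 432.7 in UCMS VIP library U604, with 98.5 nearest. The 7 marked values came from 7 libraries. The cause was not tested for any of them.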

How the results depend on the processing

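Of 1038 log2 differences of the 6 genes under alternatives that kept all or all but the shallow libraries (those under 6000000 reads), 991 kept their direction and their side of the threshold, 7 passed it newly, 14 no longer passed it and 26 changed sign, each in a comparison that was not called. Of the 24 stress differences within a type, 9 also changed sign with some 1 library left out. The cause of these changes was not tested. The setting with no filter adds low genes, and some of the other settings, not all, use fewer libraries.

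Between UCMS and control in PYR neurons, Scn8a turned to -0.0261 with the protein-coding share as a covariate and to -0.00259 with DESeq2, and Scn4b to 0.15 with a pseudocount of 1. In PV neurons Scn8a turned to 0.0239 without the shallow libraries and to 0.00502 with edgeR. In SST neurons it turned to 0.000703 with quantile normalization and 0.0141 with edgeR. In VIP neurons Scn8a turned to 0.0368 with quantile normalization, 0.0663 without shallow libraries and 0.00838 with edgeR. There Scn1a turned to 0.0728 without shallow libraries, Scn2b to -0.104 without them and -0.0156 with DESeq2, and Scn4b to 0.253 with edgeR and 0.165 with DESeq2. In the average, Scn3a turned to 0.0106 without shallow libraries, 0.0192 with edgeR and 0.0105 with DESeq2. Scn8a turned to 0.0189 with quantile normalization, 0.00558 with protein-coding scaling and 0.00853 without shallow libraries, and Scn2b to 4.2e-05 with quantile normalization. Scn3b turned to 0.0599 without shallow libraries, 0.203 with edgeR and 0.193 with DESeq2. Scn4b in SST against VIP neurons of UCMS mice turned to -0.0184 without shallow libraries.

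Counts of members called changed in 7 comparisons. In control mice SST against PYR gave 1 with no filter and with quantile normalization, VIP against PYR gave 1 with no filter and 3 with DESeq2, and SST against VIP gave 0 with no filter, 1 without shallow libraries or with edgeR, and 3 with DESeq2. There PV against SST gave 3 with edgeR and DESeq2, and PV against VIP 5 with edgeR. In UCMS mice SST against VIP gave 2 with a pseudocount of 16, quantile normalization, protein-coding scaling, DESeq2 and without shallow libraries. With 1 library left out, counts ran between 1 and 2 for SST against PYR and VIP against PYR in control mice, 0 and 2 for SST against VIP in control mice, 5 and 6 for PV against PYR in UCMS mice, 2 and 3 for SST against PYR and VIP against PYR in UCMS mice, and 1 and 2 for SST against VIP in UCMS mice; for every stress comparison they stayed at 0. PV against PYR in UCMS mice gave 5 with a pseudocount of 1, no filter, edgeR and without the replicate block (the mouse), which changed no other count. An interaction test with DESeq2 was not run.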
